A study of Mus musculus with 2 samples.

Results

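The genes described here are the 2 ligands BAFF (Tnfsf13b) and APRIL (Tnfsf13) and their 3 receptors TACI (Tnfrsf13b), BAFF receptor (Tnfrsf13c) and BCMA (Tnfrsf17). They were taken by symbol from the deposited gene lists, where each matched 1 row, so the set is 5 of 28692 genes. Peritoneal cavity cells of C57BL/6 mice kept germ-free, that is without microbes, had been profiled with a droplet method (10x Chromium, 3′ chemistry). 1 library came from wild-type (WT) mice and 1 from Xbp1dIEC mice, whose intestinal epithelium lacks Xbp1, a factor of the unfolded protein response. Each library was a pool of equal cell numbers from 4 male mice aged 10 weeks, and the labels do not give the Cre driver. The deletion lies in cells that were not sampled, so the Xbp1 level in these libraries does not check the genotype. With 1 library per genotype there is no replicate and no test, and all 95% intervals cover counting error only.

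BAFF and APRIL are ligands of the tumour necrosis factor family that keep B cells and plasma cells alive. BAFF binds all 3 receptors, whereas APRIL binds TACI and BCMA and also heparan sulfate chains of syndecans. BAFF receptor releases the kinase NIK (Map3k14) from TRAF3 and so drives the Nfkb2 and Relb arm of NF-kappaB, on which the survival of mature B-2 cells depends. TACI supports antibody responses to T-independent antigens and class switching, including to IgA. BCMA marks plasma cells. B-1 cells are the innate-like B cells that are abundant in body cavities, and B-2 cells are the conventional B cells of lymphoid organs.

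After filtering, 6058 WT and 6113 Xbp1dIEC cells remained, from 56229330 and 49703442 UMIs (unique molecular identifiers, the counted transcripts) in the 2 files, and 58 barcodes occurred in both libraries. Cells were assigned by sums of marker UMIs. The macrophage gate held 3076 WT and 3117 Xbp1dIEC cells. The gate on Cd209a, a lectin of class II-high myeloid cells, held 71 and 81. The B-1 gate held 469 and 785, the B-2 gate 843 and 662, the T gate 296 and 236 and the NK gate 27 and 33. The median UMI count per cell in WT and Xbp1dIEC was 8219 and 8853 in B-1 cells, 5115 and 4862 in B-2 cells, and 9613.5 and 7782 in macrophages. Cells that passed the minimum of more than 1 lineage, 685 (11.3%) in WT and 457 (7.48%) in Xbp1dIEC, entered no gate.

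Marker levels are given here for the B-1, B-2, Cd209a and macrophage gates, and some of these markers were also used to draw the gates. Zbtb32, a B-1 transcription factor, was at 199 CPM (UMIs per 1000000 UMIs of the gate) in WT B-1 cells and 45.4 in WT B-2 cells, and at 157 and 42.1 CPM in Xbp1dIEC. Fcer2a, the low-affinity IgE receptor CD23 of B-2 cells, was at 14.2 CPM in WT B-1 and 169 in WT B-2 cells, and at 8.40 and 133 CPM in Xbp1dIEC. The class II gene H2-Ab1, which was not used in gating, was at 14142 and 11368 CPM in the Cd209a gate and at 352 and 260 CPM in macrophages. In the NK gate the same gene was at 4387 CPM in WT and 960 in Xbp1dIEC. Batf3 was there at 120 CPM in WT (15 UMIs) and 34.6 CPM in Xbp1dIEC (4 UMIs). In the Cd209a gate Batf3 was at 162 and 232 CPM. The source of the H2-Ab1 and Batf3 UMIs in the NK gate was not tested.

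Most of the results concern the BAFF gene, which was highest in macrophages, and the receptors TACI and BAFF receptor, which were highest in the B gates. The 250 bases upstream of a RefSeq start site of these 3 genes (build GRCm38.p6) are therefore shown, 5′ to 3′ on the strand of the gene. Each window was searched on both strands for 5 motifs, and matches are in capitals. The motifs were GAGGAA (PU.1 core), ATGCAAAT (octamer), CAGCTG (E-box), GAAANNGAA (interferon factor repeat) and GGGNNNTCC (kappaB).
Tnfsf13b, chr8:10006217-10006466, plus strand: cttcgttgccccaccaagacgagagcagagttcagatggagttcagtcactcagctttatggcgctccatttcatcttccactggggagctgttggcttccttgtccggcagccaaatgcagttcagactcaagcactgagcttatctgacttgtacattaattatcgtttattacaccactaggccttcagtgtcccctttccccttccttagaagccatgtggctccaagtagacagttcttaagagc
Tnfrsf13b, chr11:61126505-61126754, plus strand: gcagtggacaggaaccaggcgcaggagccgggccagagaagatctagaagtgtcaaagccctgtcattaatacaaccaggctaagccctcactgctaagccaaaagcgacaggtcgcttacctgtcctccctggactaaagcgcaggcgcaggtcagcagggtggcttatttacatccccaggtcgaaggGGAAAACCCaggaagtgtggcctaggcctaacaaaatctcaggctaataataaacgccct
Tnfrsf13c, chr15:82224381-82224630, minus strand: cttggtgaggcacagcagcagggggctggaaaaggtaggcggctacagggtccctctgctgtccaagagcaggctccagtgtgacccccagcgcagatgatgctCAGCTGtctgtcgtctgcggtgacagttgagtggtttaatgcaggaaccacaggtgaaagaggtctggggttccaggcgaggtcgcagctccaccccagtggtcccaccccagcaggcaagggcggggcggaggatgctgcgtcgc
The Tnfsf13b window shown held none of the 5 motifs. RefSeq gives this gene a second start site further downstream, and its window (chr8:10006383-10006632), which overlaps the one shown, held 1 interferon factor repeat that starts at -16. The Tnfrsf13b window held 1 kappaB match that starts at position -60 from the start site, and the Tnfrsf13c window 1 E-box that starts at -146. Over the 32851 promoters of the same length, 15.2% held the kappaB letters, 13.0% the E-box, 23.3% the PU.1 core, 7.13% the interferon factor repeat and 1.60% the octamer. A match is a description of letters and not a site.

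BAFF transcripts lay in macrophages in both libraries. Tnfsf13b (ENSMUSG00000031497) spans chr8:10006467-10039072 on the plus strand of GRCm38 in GENCODE M21. Its level in the macrophage gate was 14.3 CPM in WT (interval 13.0 to 15.7, 432 UMIs) and 17.5 CPM in Xbp1dIEC (15.9 to 19.3, 424 UMIs). Of all Tnfsf13b UMIs in the cells kept, the macrophage gate held 86.2% of 501 in WT and 88.3% of 480 in Xbp1dIEC. Over all genes, this gate held 30143427 of 54071563 UMIs in WT and 24195478 of 48074852 in Xbp1dIEC. Cells over the minimum of several lineages held 10.6% and 4.4% of the Tnfsf13b UMIs. B-1 cells held 2 UMIs in WT (0.443 CPM) and 1 in Xbp1dIEC (0.120 CPM), and B-2 cells held 2 (0.369 CPM) and 1 (0.235 CPM). No UMI was counted in T or NK cells, where the limit taken for a count of 0, 3 UMIs, is 2.47 CPM in WT T cells and 3.06 CPM in Xbp1dIEC T cells but 24.1 and 25.9 CPM in the small NK gates. The few B cell UMIs were 0.685% to 3.09% of the macrophage level. Lyz2, the lysozyme gene of macrophages, was in B-1 and B-2 cells at 1.76% to 2.86% of its macrophage level. Each of the Tnfsf13b percentages rests on 1 or 2 UMIs, and the part of macrophage RNA in them was not tested.

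The Cd209a gate held 1 UMI of Tnfsf13b in WT (1.90 CPM, 0.0482 to 10.6) and 4 in Xbp1dIEC (7.03 CPM, 1.92 to 18.0). The log2 ratio to the macrophage gate, with 1 CPM added to both sides as in all ratios below, was -2.40 (-3.87 to -0.39) in WT and -1.21 (-2.67 to 0.05) in Xbp1dIEC. Only in WT did this interval exclude 0, and the difference between the 2 ratios was not tested. In Xbp1dIEC the value moved to -4.22 with gate minimums 2 UMIs higher and to -2.71 with gates read from cells thinned to 2000 UMIs.

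Within the macrophages, Tnfsf13b was higher in cells with Timd4 or Gata6 and without Folr2 than in cells with Folr2. Macrophages with Timd4 or Gata6 UMIs, genes of the large resident macrophage, and without Folr2 had 16.7 CPM in WT (349 UMIs) and 19.6 CPM in Xbp1dIEC (321 UMIs). Macrophages with 2 or more UMIs of the folate receptor gene Folr2, whether or not they had Timd4 or Gata6, had 8.32 CPM (18 UMIs) and 7.72 CPM (11 UMIs). The log2 ratio of the former to the latter was 0.93 (0.30 to 1.60) in WT and 1.24 (0.46 to 2.10) in Xbp1dIEC. With gates read from thinned cells the ratios were 1.01 (-0.05 to 2.21) and 0.94 (-0.23 to 2.31), with intervals that include 0. Macrophages in neither set, which include cells with Folr2 UMIs under the minimum of 2, stood at 9.16 CPM in WT and 14.4 in Xbp1dIEC.

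Tnfsf13b was scattered at about 1 UMI per positive cell. In WT, 364 macrophages had 1 UMI, 31 had 2 and 2 had 3 or more, and in Xbp1dIEC the numbers were 344, 34 and 4. With every cell thinned to 2000 UMIs, 2.76% of WT (2.21 to 3.41) and 3.50% of Xbp1dIEC macrophages (2.88 to 4.20) had a UMI. Unthinned, the shares were 12.9% and 12.3%. The share in T cells, which should lack the gene, was 0 of 296 and 0 of 236 cells.

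Between the genotypes, macrophage Tnfsf13b was slightly higher in the Xbp1dIEC library, with a log2 ratio of 0.27 (0.09 to 0.46). It was 0.22 (0.01 to 0.43) among the Timd4 or Gata6 macrophages alone. Over the 9 alternatives it kept its sign and ranged from 0.14 to 0.33, and with gates read from thinned cells (0.14, -0.10 to 0.38) the interval included 0. The ratio lies under the 1.5-fold used as a call between genotypes, which 2.66% of the 11221 genes with 30 or more UMIs in macrophages passed. Of the 6 genes used to gate macrophages, Timd4 (210 and 214 CPM), Gata6 (79.3 and 81.9 CPM) and Cd14 (261 and 274 CPM) had overlapping intervals in WT and Xbp1dIEC. Each of these was slightly higher in Xbp1dIEC, and overlap of separate intervals does not show that levels were equal. Csf1r was higher in Xbp1dIEC, at 352 and 379 CPM, while Adgre1, at 548 and 490 CPM, and Fcgr1, at 33.2 and 21.5 CPM, were lower. Lyz2 moved in the direction of Tnfsf13b, with 46972.5 CPM in WT and 53100.5 CPM in Xbp1dIEC macrophages. The part of these shifts in the Tnfsf13b ratio was not tested.

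**Figure D1:**
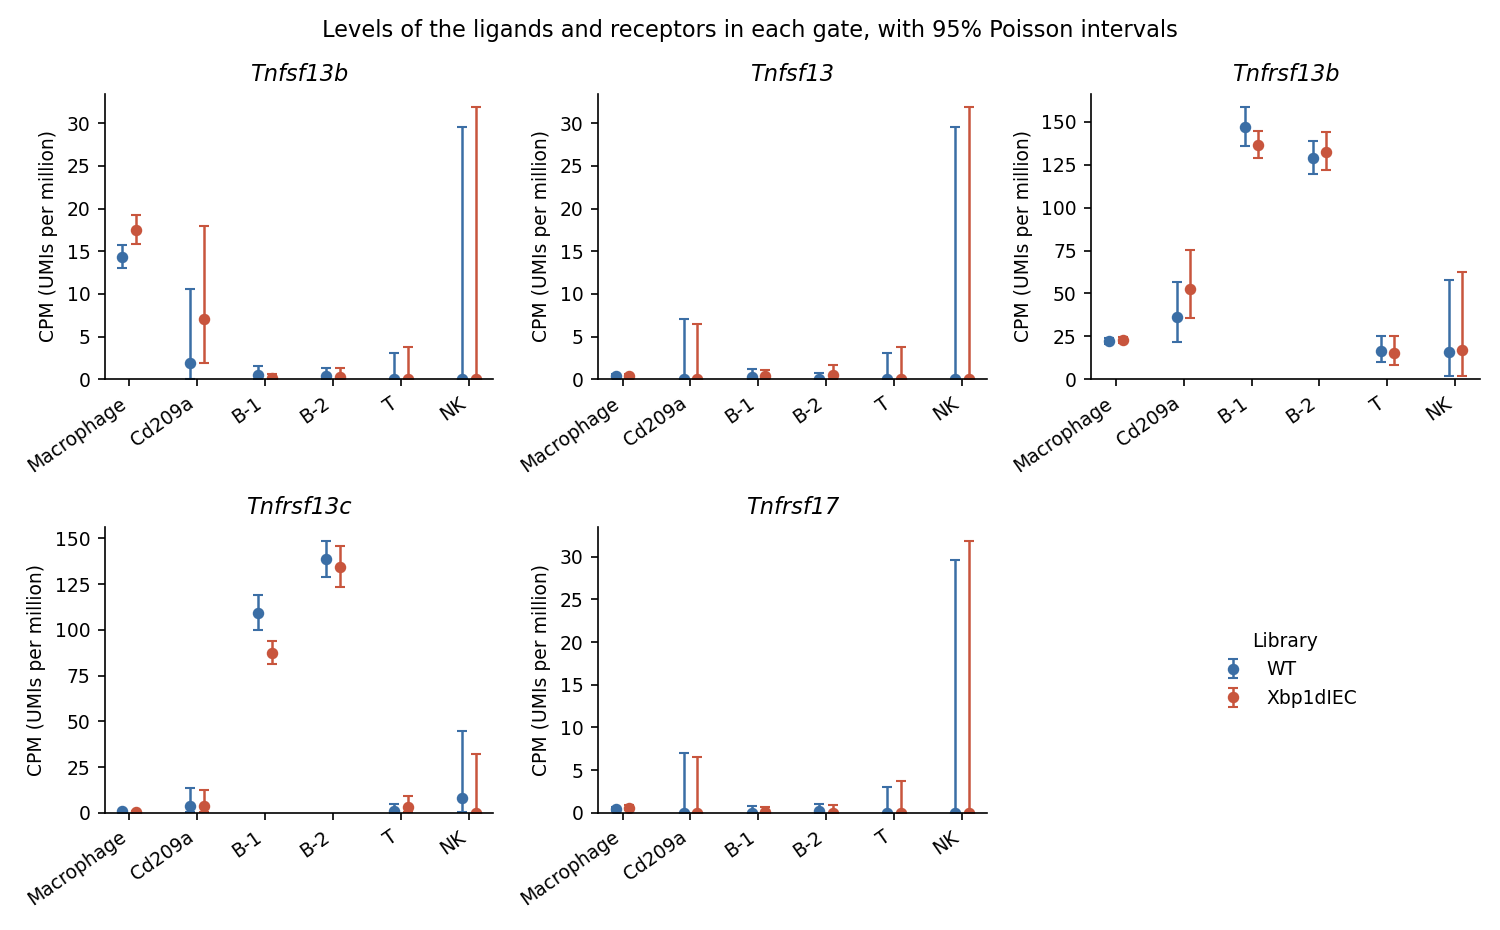
Levels of the 5 genes in 6 gates. The vertical axes give CPM of summed UMIs, blue points are WT, red points are Xbp1dIEC, and bars are 95% Poisson intervals. Tnfsf13b is highest in macrophages (14.3 and 17.5 CPM), Tnfrsf13c is highest in both B gates, and Tnfrsf13b also stands above 0 in macrophages, Cd209a and T cells; the wide NK bars come from gates of 27 and 33 cells.

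APRIL could hardly be measured. Tnfsf13 (ENSMUSG00000089669, chr11:69682846-69685784, minus strand) had 20 UMIs in all WT cells kept and 14 in all Xbp1dIEC cells kept. Macrophages held 11 UMIs in WT (0.365 CPM, 0.182 to 0.653) and 8 in Xbp1dIEC (0.331 CPM, 0.143 to 0.651). B-1 cells held 1 and 3 UMIs, B-2 cells 0 and 2, and the Cd209a, T and NK gates none. In macrophages, Xbp1dIEC over WT stood at a log2 ratio of -0.04 (-0.37 to 0.33).

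The low APRIL count is uncertain, because the gene shares its end with a neighbour. In GENCODE M21, 60.0% of the exonic bases of Tnfsf13, and 100% of its last 300 exonic bases, also belong to Tnfsfm13, the read-through gene that joins Tnfsf12 (TWEAK) to Tnfsf13 on the same strand. Of the exonic bases of Tnfsf13, 13.5% lie opposite the antisense gene Tnfsf13os. Tnfsfm13 ends further downstream than Tnfsf13, and only 10.3% of its own last 300 exonic bases are shared. Which transcript the UMIs from that end came from was not tested. The chemistry reads the 3′ end, and how reads in shared exons were assigned is not given in the sources used here. Tnfsfm13 itself was a macrophage gene. It had 18.7 CPM (564 UMIs) in WT and 20.1 CPM (487 UMIs) in Xbp1dIEC macrophages, which was 88.5% and 92.6% of its UMIs. These shares are to be read against the macrophage UMIs of all genes given above. Its B-1 level was 0.665 CPM in WT and 0.240 CPM in Xbp1dIEC. Its macrophage log2 ratio between genotypes was 0.10 (-0.07 to 0.27). Tnfsf12, the TWEAK gene, was at 70.3 CPM in WT and 86.7 CPM in Xbp1dIEC macrophages, with a log2 ratio of 0.30 (0.21 to 0.39). The UMIs of these genes cannot be told apart in exons that they share.

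TACI was found in both kinds of B cell at similar levels. Tnfrsf13b (ENSMUSG00000010142) lies at chr11:61126755-61149372 on the plus strand, downstream of the window with the kappaB match shown above. In B-1 cells it was at 147 CPM in WT (136 to 159, 664 UMIs) and 137 CPM in Xbp1dIEC (129 to 145, 1139 UMIs). In B-2 cells it was at 129 CPM (120 to 139, 700 UMIs) and 133 CPM (122 to 144, 564 UMIs). B cells in neither gate had 148 and 149 CPM. The B-1 over B-2 log2 ratio was 0.19 (0.03 to 0.34) in WT and 0.04 (-0.10 to 0.19) in Xbp1dIEC. The interval of the small WT excess included 0 with gates read from thinned cells (0.19, -0.02 to 0.40) or with B gates free of the other's markers (0.14, -0.10 to 0.38).

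TACI was often counted more than once in a B cell. Of 469 WT B-1 cells, 160 had 1 UMI of Tnfrsf13b, 98 had 2 and 79 had 3 or more, up to 8. Of 785 Xbp1dIEC B-1 cells, 248 had 1, 143 had 2 and 156 had 3 or more, up to 9. At 2000 UMIs per cell, 27.3% of WT (23.3 to 31.6) and 22.5% of Xbp1dIEC B-1 cells (19.7 to 25.6) had a UMI, beside 24.7% and 22.8% of B-2 cells. Unthinned, the B-1 shares were 71.9% and 69.7% and the B-2 shares 51.4% and 50.3%, in shallower cells.

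TACI transcripts were also found outside the B gates. The macrophage gate had 22.0 CPM in WT (20.4 to 23.8, 664 UMIs) and 22.7 CPM in Xbp1dIEC (20.8 to 24.7, 549 UMIs). Cd209a cells had 36.2 CPM (21.8 to 56.5, 19 UMIs) and 52.7 CPM (35.6 to 75.3, 30 UMIs). T cells had 16.5 CPM (10.0 to 25.4, 20 UMIs) and 15.3 CPM (8.58 to 25.3, 15 UMIs). NK cells had 2 UMIs in each library. The macrophage, T and NK levels did not differ beyond their intervals, while the Cd209a interval in Xbp1dIEC lay above those of macrophages and T cells.

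These levels were set beside B cell RNA found in the same gates. In macrophages, Tnfrsf13b was at 15.8% of its level over all B cells in WT and 16.5% in Xbp1dIEC. Tnfrsf13c was at 0.648% and 0.627% in the same cells, Ighm at 1.14% and 1.09% and Ighd at 1.27% and 1.52%, none of which was used for gating macrophages. The percentage of TACI was above those of these 3 other B cell genes in both libraries. In Cd209a cells Tnfrsf13b was at 26.0% and 38.3%, beside 4.32% and 4.09% for Ighm. Cells that met the minimum of no lineage had 41.6 and 33.6 CPM of Tnfrsf13b, or 29.9% and 24.4%. These percentages were higher than those of macrophages. The part of B cell RNA in the TACI level of these cells was not tested. In T cells Tnfrsf13b was at 11.8% and 11.1%, beside 6.61% and 5.73% for Ighm and 0.669% and 2.90% for Tnfrsf13c, on 15 to 20 UMIs. At 2000 UMIs per cell, 4.65% of WT and 4.72% of Xbp1dIEC macrophages had a TACI UMI, against 0.0650% and 0.0321% for Tnfrsf13c and 2.36% and 3.81% of T cells for TACI. Among the macrophage subsets, those with Timd4 or Gata6 had a TACI level of 20.3 CPM (18.5 to 22.4) in the WT library and 21.1 CPM (19.0 to 23.5) in the Xbp1dIEC library, and Folr2 macrophages had 24.0 and 24.6 CPM. The others had 26.4 CPM (22.7 to 30.4) and 26.2 CPM (22.4 to 30.5), above the Timd4 or Gata6 macrophages without overlap in WT and with overlap in Xbp1dIEC.

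**Figure D2:**
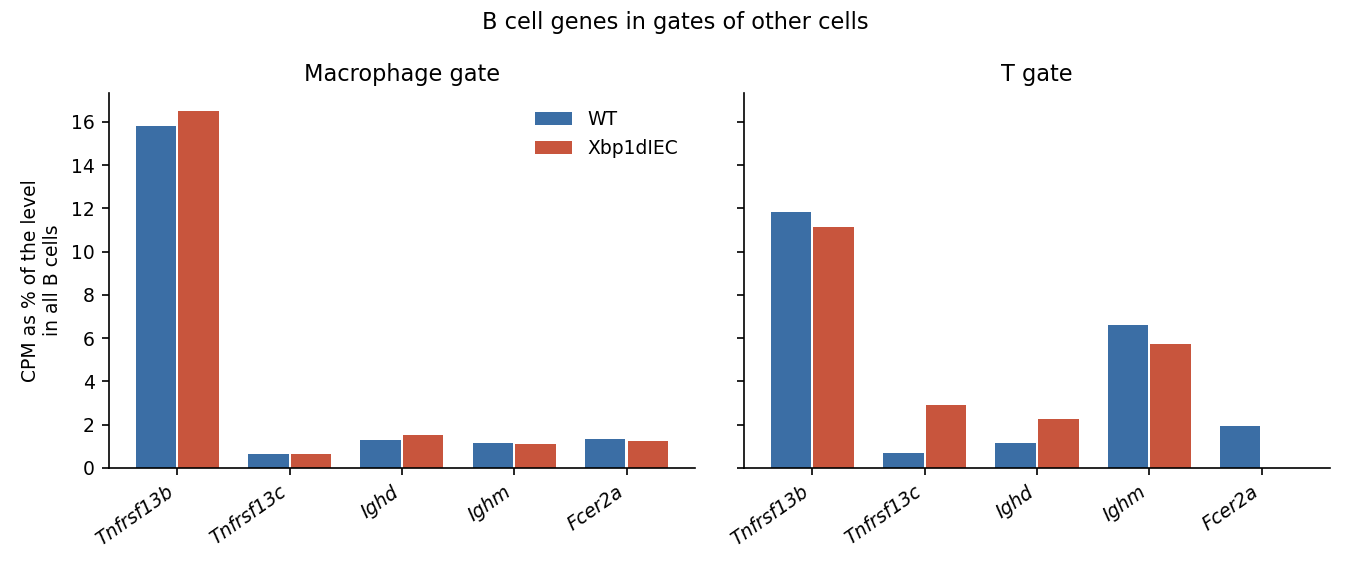
B cell genes in macrophages (left) and T cells (right). Bars give each gene's CPM as a percent of its CPM over all B cells of the same library, without intervals; blue is WT and red is Xbp1dIEC. In macrophages Tnfrsf13b reaches 15.8% and 16.5%, while the other 4 genes lie between 0.627% and 1.52%; the T gate bars rest on few UMIs apart from Ighm.

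BAFF receptor was a B cell gene and was lower in B-1 than in B-2 cells in both libraries. Tnfrsf13c (ENSMUSG00000068105, chr15:82221743-82224369, minus strand) follows the window with the E-box shown above. In B-1 cells it was at 109 CPM in WT (99.8 to 119, 493 UMIs) and 87.5 CPM in Xbp1dIEC (81.3 to 94.1, 729 UMIs). In B-2 cells it was at 139 CPM (129 to 149, 751 UMIs) and 134 CPM (124 to 146, 572 UMIs). Both B-1 values lay below both B-2 values, with no overlap of the intervals. B cells in neither gate had 112 CPM in WT and 116 CPM in Xbp1dIEC. The B-2 gate was drawn on Ighd, Fcer2a and Cr2, and the latter pair are also response genes in the pathway lists used below. Macrophages had 0.796 and 0.661 CPM (24 and 16 UMIs), T cells 1 and 3 UMIs, Cd209a cells 2 UMIs in each library and NK cells 1 and 0.

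The B-1 over B-2 log2 ratio of Tnfrsf13c was -0.34 (-0.51 to -0.18) in WT and -0.61 (-0.77 to -0.45) in Xbp1dIEC. Neither reached the 2-fold used as a call between these gates, which 3.48% of 8913 genes passed in WT and 3.11% of 9252 in Xbp1dIEC. The sign held under all 12 alternatives in each library, with values between -0.61 and -0.22 in WT and between -0.74 and -0.40 in Xbp1dIEC. Thinned to 2000 UMIs, 18.1% of WT and 17.1% of Xbp1dIEC B-1 cells had a UMI, and 26.3% and 26.6% of B-2 cells. Unthinned, the order was turned, with 60.1% and 53.5% in B-1 and 52.4% and 51.2% in B-2 cells; the B-1 cells were deeper, and the intervals of the 2 gates overlapped in both libraries.

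The balance of the 2 receptors was taken as a share of their own UMIs, which needs no CPM denominator. Tnfrsf13b gave 57.4% of the UMIs of both receptors in WT B-1 cells (54.5 to 60.3, of 1157 UMIs) and 61.0% in Xbp1dIEC B-1 cells (58.7 to 63.2, of 1868). In B-2 cells it gave 48.2% (45.6 to 50.8, of 1451) and 49.6% (46.7 to 52.6, of 1136). B cells in neither gate stood at 57.0% and 56.2%, near the B-1 cells. The log2 odds ratio of TACI against BAFF receptor, B-1 over B-2, was 0.53 (0.30 to 0.76) in WT and 0.66 (0.45 to 0.88) in Xbp1dIEC. B-1 cells had more TACI UMIs per BAFF receptor UMI than B-2 cells in each of the 2 libraries. Over the alternatives the odds ratio ran from 0.39 to 0.80 in WT and from 0.42 to 0.86 in Xbp1dIEC. At 2000 UMIs per cell, 4.90% of WT (3.13 to 7.27) and 3.31% of Xbp1dIEC B-1 cells (2.17 to 4.82) had UMIs of both receptors, beside 6.05% (4.54 to 7.88) and 6.50% (4.74 to 8.65) of B-2 cells, with intervals that overlap in each library. Unthinned, with B-1 cells the deeper, the shares were 45.6% and 38.7% in B-1 and 28.7% and 27.6% in B-2 cells.

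**Figure D3:**
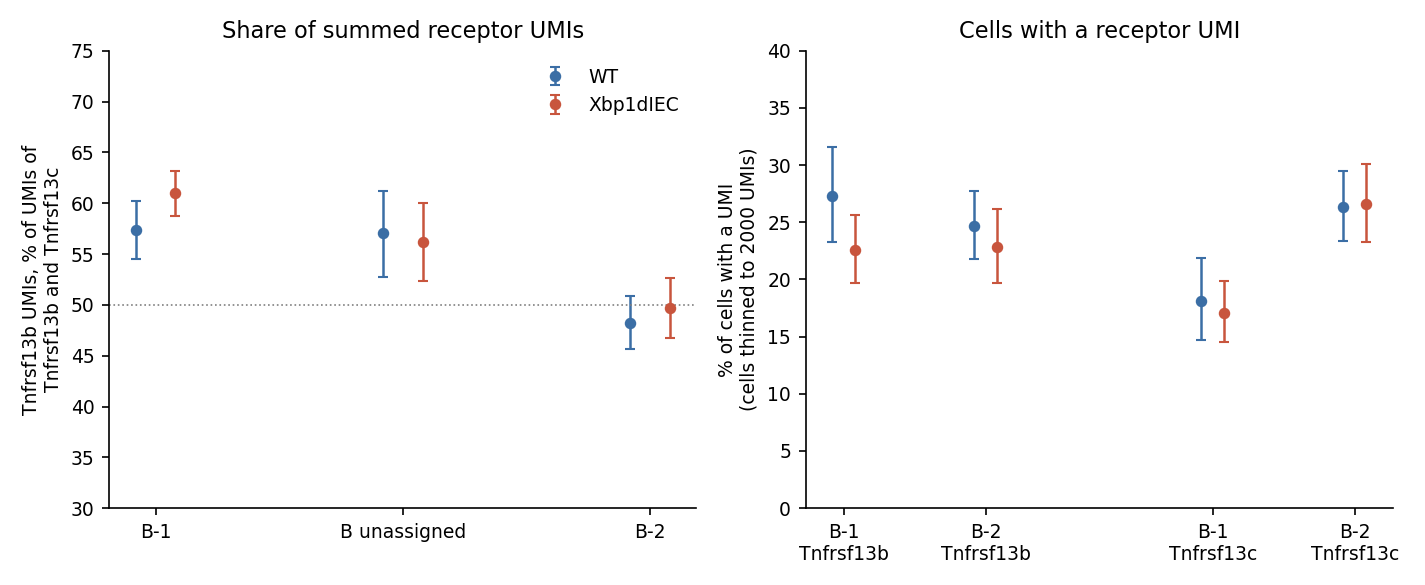
Receptor balance in B cells. Left, Tnfrsf13b UMIs as a percent of the UMIs of Tnfrsf13b and Tnfrsf13c in B-1 cells, B cells in neither gate and B-2 cells, on an axis that starts at 30, with the dotted line at equal UMIs; right, the percent of cells with a UMI after thinning. Blue is WT, red is Xbp1dIEC and bars are exact 95% intervals. B-1 cells lie above the line (57.4% and 61.0%), B-2 cells at it (48.2% and 49.6%), and only Tnfrsf13c differs between the gates in the share of cells.

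Within the B-1 gate the intervals of the TACI share overlapped between the states that the marker genes separate. Cells with more Fbxw13, Prkar2b and Fgd2 numbered 134 in WT and 423 in Xbp1dIEC, and their TACI share was 60.0% (54.3 to 65.5) and 62.5% (59.4 to 65.5). Cells with more Ahnak2, Phgdh and Ass1 numbered 270 and 257, with 56.5% (52.8 to 60.2) and 57.3% (53.4 to 61.2). BAFF receptor was at 97.2 CPM (80.8 to 116) in WT and 78.7 CPM (71.0 to 87.0) in Xbp1dIEC in the former. In the latter it was at 113 CPM (101 to 126.5) and 105 CPM (93.1 to 118). These intervals overlapped between the states in WT but not in Xbp1dIEC.

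Between the genotypes, the interval of the TACI ratio included 0 in every gate with 10 or more UMIs. As Xbp1dIEC over WT, its log2 ratio stood at -0.10 (-0.24 to 0.03) in B-1, 0.04 (-0.12 to 0.20) in B-2, 0.04 (-0.12 to 0.20) in macrophages, -0.10 (-1.09 to 0.88) in T cells and 0.53 (-0.32 to 1.42) in Cd209a cells. BAFF receptor was at -0.04 (-0.20 to 0.11) in B-2 cells. In B-1 cells it was lower in Xbp1dIEC, at -0.32 (-0.48 to -0.15). This value was -0.13 (-0.30 to 0.05) with gate minimums 1 UMI lower and -0.12 (-0.35 to 0.12) with gates read from thinned cells. Within the states it was -0.30 (-0.59 to 0.00) in the Fbxw13 state and -0.11 (-0.34 to 0.13) in the Ahnak2 state. The Fbxw13 state made up more of the Xbp1dIEC gate, and the part of this in the ratio was not tested. Neither receptor reached 1.5-fold, which 7.43% of 9294 genes passed in B-1 cells and 5.46% of 8858 in B-2 cells.

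BCMA was hardly detected. Tnfrsf17 (ENSMUSG00000022496, chr16:11313812-11320074, plus strand) had 17 UMIs in all WT cells kept and 15 in all Xbp1dIEC cells kept. B-1 cells held 0 and 1 UMI and B-2 cells 1 and 0, so the level over all B cells was 0.0831 CPM in WT (up to 0.463) and 0.0663 CPM in Xbp1dIEC (up to 0.369). Macrophages held 12 and 13 UMIs, or 0.398 CPM (0.206 to 0.695) and 0.537 CPM (0.286 to 0.919), with a log2 ratio between genotypes of 0.14 (-0.25 to 0.50). These came from 11 WT and 13 Xbp1dIEC macrophages, and none of them had a UMI of Jchain, Sdc1 or Prdm1, genes of plasma cells. Of the cells that carried markers of several lineages, 2 in WT and 1 in Xbp1dIEC had Tnfrsf17, and 1 in each library also had Jchain.

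Most genes of the signal list, which holds genes of both arms of NF-kappaB, were lower in B-1 than in B-2 cells. BAFF receptor was lower there too, but a link between the list and the receptor was not tested. Of the 16 measured genes of the signal list, 15 in WT and 13 in Xbp1dIEC had a B-1 over B-2 log2 ratio below 0, and 13 were below 0 in both libraries. Among all genes tested 64.8% and 59.2% were below 0. The interval lay below 0 for 10 of 16 in WT and 8 of 16 in Xbp1dIEC, against 20.0% and 17.6% of all genes. The list and all genes were not matched for UMI counts, and intervals are narrower for genes with more UMIs. The median of the list was -0.40 and -0.34, beside -0.12 and -0.07 for all genes tested. No signal gene passed 2-fold in the main setting. Over the alternatives the lowest ratios in WT and Xbp1dIEC were -1.23 and -1.30 for Nfkb2, -1.19 and -1.21 for Relb and -1.04 and -1.22 for Traf5. These are past 2-fold, while the highest ratios of the same genes were under it.

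Relb, the partner of processed Nfkb2, was at 24.8 CPM in WT B-1 and 49.3 CPM in WT B-2 cells, and at 19.1 and 35.5 CPM in Xbp1dIEC, with log2 ratios of -0.96 (-1.28 to -0.65) and -0.86 (-1.18 to -0.54). Nfkb2, the precursor of the p52 subunit, was at 28.1 and 53.1 CPM in WT and at 18.9 and 38.3 CPM in Xbp1dIEC, with log2 ratios of -0.89 (-1.20 to -0.60) and -0.99 (-1.30 to -0.67). Nfkb1, the precursor of p50 in the other arm of NF-kappaB, went the other way at 0.26 (0.06 to 0.46) and 0.19 (0.01 to 0.38). Rel, Rela and Ikbkb of that same arm were below 0 in both libraries. Rel stood at -0.66 (-0.88 to -0.44) and -0.55 (-0.76 to -0.34), and Rela at -0.33 (-0.62 to -0.05) and -0.13 (-0.41 to 0.17). Ikbkb stood at -0.50 (-0.67 to -0.33) and -0.37 (-0.51 to -0.22). Traf5, an adaptor of TNF receptors, stood at -0.74 (-1.04 to -0.44) and -0.81 (-1.12 to -0.51). Traf3, the adaptor that holds NIK in check, stood at -0.39 (-0.86 to 0.07) and 0.31 (-0.14 to 0.77), and Map3k14, the NIK gene, at -0.41 (-0.83 to 0.00) and -0.32 (-0.68 to 0.05). Chuk stood at -0.57 (-0.92 to -0.22) and -0.38 (-0.72 to -0.03). Nfkb2 and Relb had the lowest values of the signal list in both libraries, but genes of both arms were below 0.

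Over the 32 pathway genes reported here outside the gate markers, 2 of 28 measured passed 2-fold in WT, both lower in B-1 cells, and in Xbp1dIEC 1 of 27 measured did, also lower. These counts are to be read against the 3.48% and 3.11% of all genes. Icosl, the ligand of the T cell receptor ICOS, was at 3.77 CPM in WT B-1 and 21.4 CPM in WT B-2 cells, and at 1.80 and 14.1 CPM in Xbp1dIEC. Bcl2l11, which encodes the death-promoting protein BIM, was at 7.09 and 21.4 CPM in WT (log2 ratio -1.47, -2.01 to -0.95) and at 14.8 and 21.6 CPM in Xbp1dIEC (-0.52, -0.90 to -0.14). The WT ratio of Bcl2l11 was -0.88 (-1.14 to -0.59) with 10 CPM added, under the 2-fold, and -2.69 (-3.81 to -1.53) with B gates free of the other's markers. Bcl2, the survival gene, was lower in B-1 cells at -0.36 (-0.48 to -0.23) in WT and -0.67 (-0.81 to -0.53) in Xbp1dIEC, whereas Mcl1, its relative, was higher at 0.25 (0.15 to 0.36) and 0.33 (0.23 to 0.43).

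**Figure D4:**
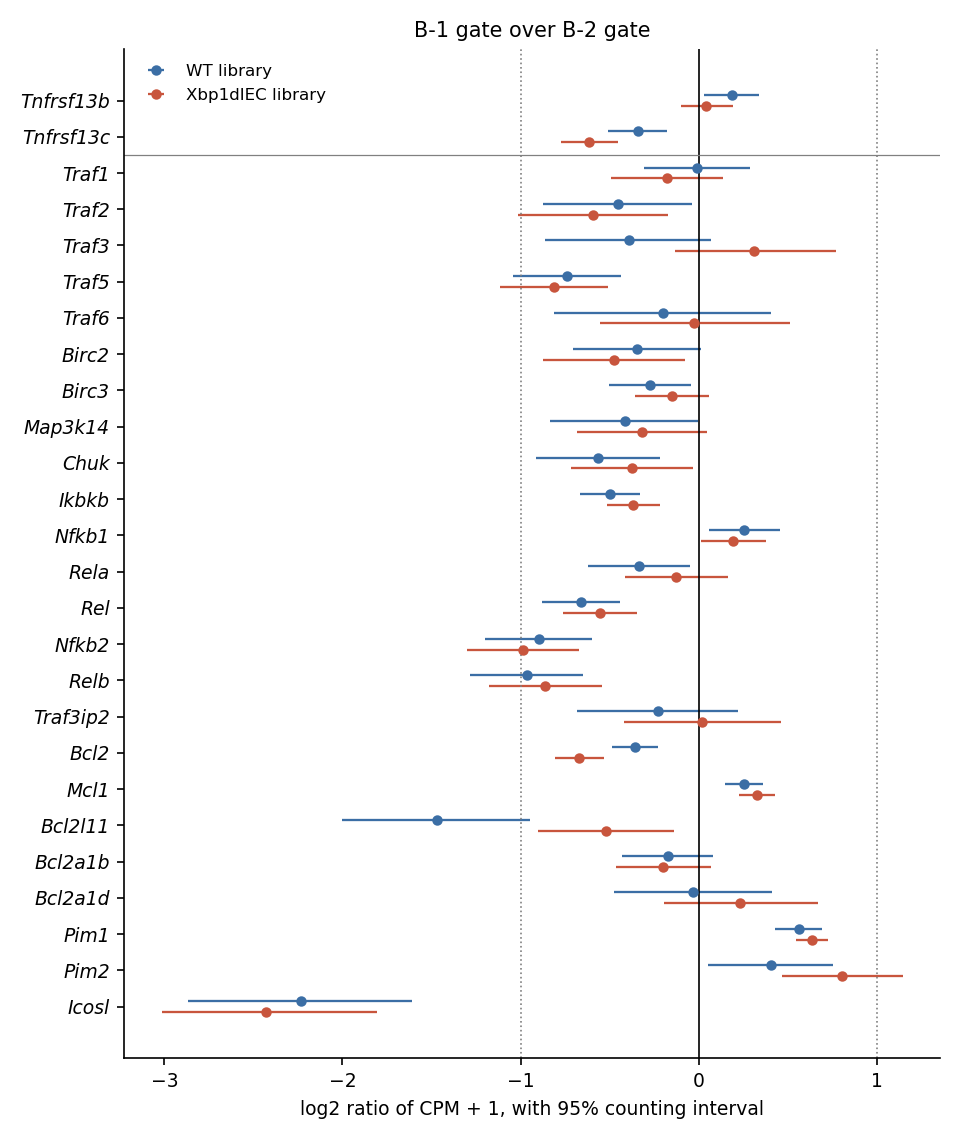
B-1 over B-2 log2 ratios of CPM + 1 for the 2 receptors (above the line) and pathway genes. Points are blue for WT and red for Xbp1dIEC, bars are 95% counting intervals and dotted lines mark 2-fold. Tnfrsf13c, Nfkb2, Relb and most signal genes lie left of 0 in both libraries, while Nfkb1, Mcl1 and Pim1 lie right of it.

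The surface partners of APRIL were measured in part. Sdc4, a syndecan, was at 19.3 CPM in WT B-1 and 38.6 CPM in WT B-2 cells, with a log2 ratio of -0.96 (-1.33 to -0.61), and at 21.4 and 36.2 CPM in Xbp1dIEC (-0.73, -1.04 to -0.42). Sdc3 was a macrophage gene at 437 CPM in WT and 418 CPM in Xbp1dIEC macrophages, beside 15.5 and 12.4 CPM in B-1 cells. Furin, the protease that cuts both ligands free, was at 17.9 and 20.8 CPM in macrophages, with a log2 ratio between genotypes of 0.20 (0.03 to 0.37).

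Between the genotypes, none of 32 measured pathway genes passed 1.5-fold in macrophages. In B-1 cells 2 of 30 were higher and 4 lower in Xbp1dIEC, and in B-2 cells 1 of 30 was higher and none lower, to be read against the 2.66%, 7.43% and 5.46% of all genes given above. Pim1, a survival kinase gene, was higher in both gates. It was at 224 CPM in WT and 483 CPM in Xbp1dIEC B-1 cells, with a log2 ratio of 1.11 (1.01 to 1.21), and at 151 and 310 CPM in B-2 cells, with 1.03 (0.90 to 1.16). Bcl2 was at 178 and 114 CPM in B-1 cells (-0.63, -0.77 to -0.50) and at 228 and 183 CPM in B-2 cells (-0.32, -0.45 to -0.19). Bcl2l11 was higher in Xbp1dIEC B-1 cells at 0.96 (0.45 to 1.49), but this value was 0.05 (-0.62 to 0.73) with gates read from thinned cells.

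The other 3 genes past 1.5-fold in B-1 cells were lower in Xbp1dIEC. Birc2, an inhibitor of apoptosis that works with TRAF3, was at 22.2 CPM in WT and 13.6 CPM in Xbp1dIEC (-0.67, -1.05 to -0.29). With B gates free of the other's markers the Birc2 ratio was -0.21 (-0.91 to 0.52). Fcer2a, itself a B-2 gate marker, was at 14.2 and 8.40 CPM (-0.69, -1.15 to -0.22), and Icosl at 3.77 and 1.80 CPM (-0.77, -1.51 to 0.02) on 17 and 15 UMIs. With gates read from thinned cells the Icosl ratio was 0.02 (-1.10 to 1.13). With 10 CPM added, 2 of the 6 genes, Pim1 and Bcl2, stayed past 1.5-fold. Nfkb2 was at 28.1 and 18.9 CPM in B-1 cells (-0.55, -0.89 to -0.22) and at 53.1 and 38.3 CPM in B-2 cells (-0.46, -0.74 to -0.19), under the 1.5-fold. The signal list as a whole had a median of -0.16 in B-1 and -0.29 in B-2 cells, beside 0.00 and -0.04 for all genes. Differences between pools of mice, sorting of cells into gates and genotype cannot be told apart with 1 library each.

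**Figure D5:**
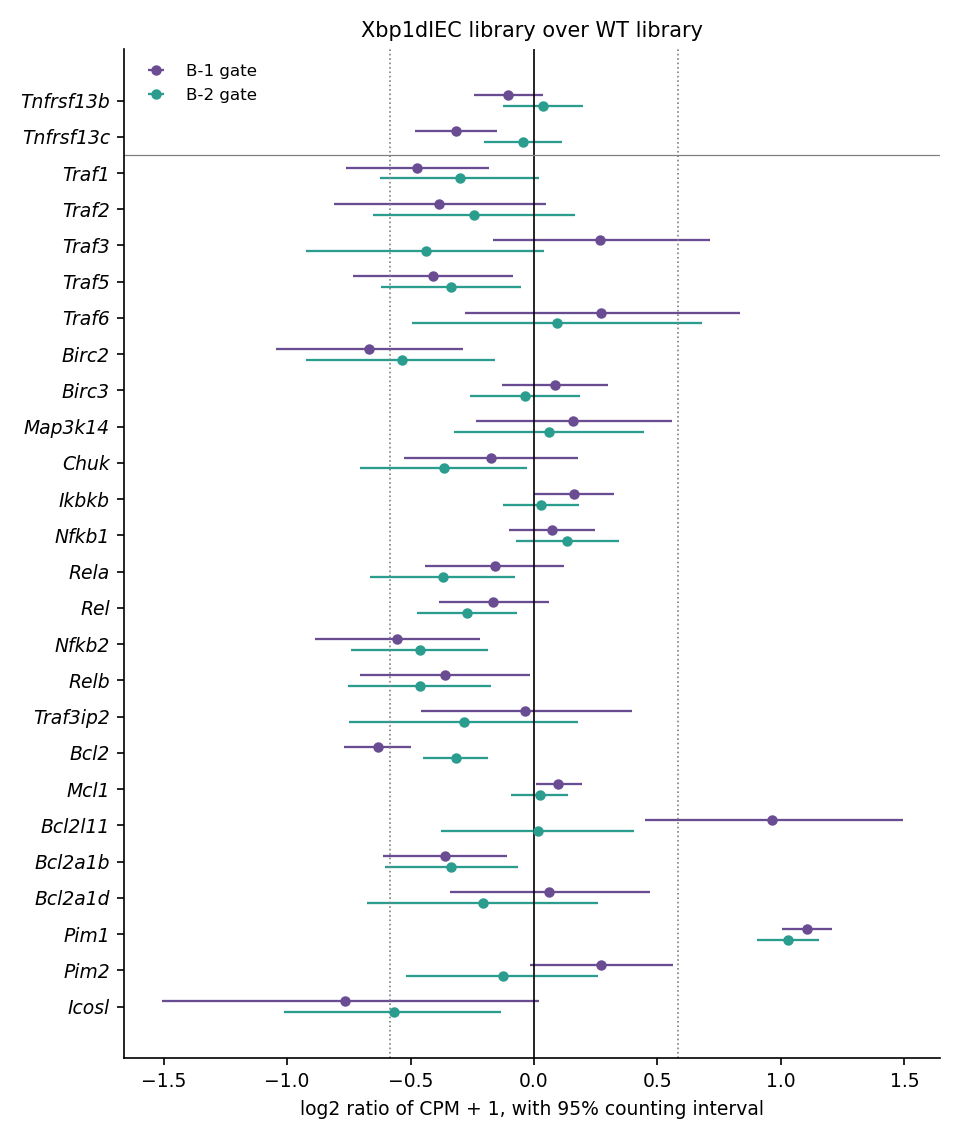
Xbp1dIEC over WT log2 ratios of CPM + 1 in B-1 (purple) and B-2 cells (green) for the 2 receptors (above the line) and pathway genes. Bars are 95% counting intervals and dotted lines mark 1.5-fold. Both receptors lie inside the dotted lines, Pim1 lies near 1 in both gates, and Bcl2 lies left of 0 in both.

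Genes with the most similar profiles were ranked by Pearson's r of log2(CPM + 1) over 12 profiles, 6 gates in each of 2 libraries, among 2328 genes with enough counts. The profiles share libraries and depth, so r is a description only. For Tnfsf13b the nearest were Igf1 (0.988), Mertk (0.983) and Gusb (0.976). For Tnfrsf13c they were Fcrla (0.991), Ms4a1 (0.972), which was used in the B cell gate, and Trim7 (0.960). For Tnfrsf13b they were Nap1l1 (0.978), Swap70 (0.973) and Cacna1s (0.969). Tnfsf13 (Rassf3 at 0.779, Ankrd33b at 0.772 and mt-Nd4 at 0.771) and Tnfrsf17 (Gata6 at 0.963, Tspan14 and Apoc1 at 0.882) had too few UMIs for a meaningful order. Igf1 was at 71.2 and 85.2 CPM in macrophages and at 9.52 and 17.6 CPM in Cd209a cells.

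Marker lists of other cells that the samples could hold were summed in each of the 6 gates. Of the 4 neutrophil markers, S100a9 and Ly6g were at 0 in every gate of both libraries, and the summed level was 16.9 and 14.3 CPM in macrophages. Of the 3 mesothelial markers, Msln was at 0 in each of the 6 gates, and the sum was at most 0.738 CPM. Of the 3 eosinophil markers Epx and Prg2 were at 0 in each of the 6 gates, with a sum of at most 5.71 CPM. The 3 mast cell markers summed to 1.99 and 3.43 CPM in macrophages, 2.76 to 6.35 CPM in the B gates and 64.2 and 25.9 CPM in the small NK gates of WT and Xbp1dIEC, where Cpa3 and Mcpt4 were at 0. Of the 3 plasmacytoid dendritic markers, Siglech was at 0 in Xbp1dIEC macrophages and in T cells of both libraries, and the sum was 189 and 144 CPM in macrophages, 365 and 232 CPM in the Cd209a gate and 62.3 to 94.6 CPM in the B gates. The 4 plasma cell markers, of which Xbp1 is also expressed in other cells, summed to 111 and 120 CPM in macrophages and to 34.5 to 58.5 CPM in the B gates. The plasmacytoid and plasma cell sums were above the macrophage levels of Tnfsf13b and Tnfrsf13b, but such a sum can rest on 1 marker. In cells with Cd209a together with Timd4 or Gata6, which entered none of these gates, Siglech and Ccr9 were at 0. The remaining plasmacytoid marker alone gave 149 CPM there in WT and 106 CPM in Xbp1dIEC. Of the plasma cell markers, Prdm1 was at 0 in Xbp1dIEC macrophages. The sums therefore do not give the amount of plasmacytoid or plasma cells. The part of the listed cell types in the results was not tested.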

How the data were processed

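The deposited files hold counts, as whole UMIs per gene and barcode without normalization. Per the submitters' processing notes, the build was mm10 and the tools were Cell Ranger 2.2.0 and Seurat 2.3.0; for annotation and barcode filter the sources used here give nothing. A barcode was kept at a minimum of 500 UMIs and 200 genes if its mitochondrial share stayed below 10%, a limit that 6 WT and 20 Xbp1dIEC barcodes failed. Doublets were called with scrublet in scanpy 1.11.5 (expected rate 5%), which removed 140 WT (2.26%) and 113 Xbp1dIEC barcodes (1.81%).

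Gates required 3 or more UMIs of Cd79a, Cd79b and Ms4a1 (B), 2 of Cd3d, Cd3e and Cd3g (T), 3 of Ncr1, Klrb1c, Klre1, Klra8, Klrk1 and Nkg7 (NK), 3 of Adgre1, Csf1r, Cd14, Fcgr1, Timd4 and Gata6 (macrophage) or 2 of Cd209a with Timd4 and Gata6 at 0. Among B cells, 2 or more UMIs of Bhlhe41, Zbtb32, Spn, Cd5, Zcwpw1 and Ahnak2 set B-1, and of Fcer2a, Ighd and Cr2 set B-2, whichever sum was larger. UMIs were summed per gate as CPM with exact Poisson intervals, shares had exact Clopper-Pearson intervals, and log2 ratios had 1 CPM added with exact conditional binomial intervals, in Python 3.11.15 with scipy 1.17.1. Thinning drew 2000 UMIs per cell, and no cell was shallower.

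Genes with 30 or more UMIs over the pair compared counted as measured. The genes, gates and pathway lists were chosen with earlier results of these data known. Named genes are the 5 members, gate markers, members of the pathway lists past the fold or with a role in the text, and the 3 genes with the highest r; Camlg and Itgam were not used here, and 1 gene of the survival and response list is not reported here and stays out of the counts. In counts simulated by Poisson error for Xbp1dIEC over WT in B-1 cells (9257 genes), 89.7% of 185 changed genes passed the fold, and intervals covered 95.8% of unchanged genes.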

Additional observations from a re-analysis of the deposited data

Results flagged for a closer look

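Outside the gates compared above, a small set of cells carried 2 or more UMIs of Cd209a together with Timd4 or Gata6, 48 in WT and 38 in Xbp1dIEC. Tnfsf13b was at 36.4 CPM in the Xbp1dIEC cells of this set (18.8 to 63.5, 12 UMIs) and at 12.9 CPM in the WT cells (4.74 to 28.1, 6 UMIs). The set was looked at because it enters no comparison and its Tnfsf13b level lies above the limit that a count of 0 allows, 9.09 CPM in Xbp1dIEC. The macrophage gate of the same library had 17.5 CPM (15.9 to 19.3), so the intervals overlap.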

How the results depend on the processing

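No paired analysis was possible because each genotype has 1 library and the labels carry no shared replicate numbers, and no library was left out. Planned ratios of Tnfsf13 (Cd209a over macrophage) and Tnfrsf17 (B-1 over B-2) are not given, because both sides or 1 of them were at or under 3 UMIs. Depth limits the NK and Cd209a gates most. The median log2 ratio of all genes moved by less than 0.1 in each gate, so centring changed no direction that is called above. B gates free of the other's markers, and B cells with a few macrophage or T UMIs, were alternatives chosen after seeing the data. Where a value moved, the cause was not tested.

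With gate minimums 2 UMIs higher, the Cd209a over macrophage log2 ratio of Tnfsf13b in Xbp1dIEC was -4.22, and with gates read from thinned cells -2.71. With thinned gates the WT B-1 over B-2 ratio of Tnfrsf13c was -0.61 and the log2 odds ratio of TACI against BAFF receptor 0.80; with a B-1 gate without Ahnak2 and Zcwpw1 the Xbp1dIEC values were -0.40 and 0.42. The Tnfrsf13c ratio of genotypes in B-1 cells was -0.13 with gate minimums 1 UMI lower and -0.12 with thinned gates, and in the Fbxw13 state 0.20 with B gates free of the other's markers. All other alternatives of these results stayed inside the interval of the main value.

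The number of pathway genes past the fold moved more. For B-1 over B-2 in WT, 2 genes became 6 with thinned gates, 4 with the mean of per-cell CPM, 1 with 10 CPM added and 6 with B gates free of the other's markers; in Xbp1dIEC, 1 became 4 with thinned gates, 4 with the mean of per-cell CPM, 2 at under 5% mitochondrial UMIs and 7 with B gates free of the other's markers. Between genotypes in macrophages, 0 became 1 with gate minimums 1 UMI lower. In B-1 cells, 6 became 3 with thinned gates, 2 with 10 CPM added and 3 with B gates free of the other's markers. In B-2 cells, 1 became 2 with minimums 1 UMI lower or 2 UMIs higher, 5 with thinned gates, and 3 with the mean of per-cell CPM, a B-2 gate on Ighd alone, a B-1 gate without Ahnak2 and Zcwpw1, or B gates free of the other's markers.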
